A study of Mus musculus with 8 samples.

Results

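The genes described here are 8 transcription factors of the core regulatory circuit of sympathetic neuroblasts, Phox2a, Hand1, Hand2, Gata2, Gata3, Isl1, Insm1 and Tfap2b, followed through 8 mouse tumours. They were chosen by name as known members of that circuit, and among probe sets annotated to a single symbol the one with the highest mean over the tumours stands for each gene. Such a probe set was found for 7 of the 8, out of 22180 genes measured, and the only probe set of Phox2a also carries another gene symbol, so Phox2a is not analysed here. The tumours arose from mouse neural crest cells transduced with N-Myc, a mixture of p53+/- and p53-/- cells that the study calls N-Myc; p53mixed. About 10000 cells were injected under the skin of nude or C57Bl/6 mice, 48 hours after infection, and primary tumours were removed after about 50 days. All 8 tumours carry the same label and form 1 group (n = 8). The labels do not say which host or which p53 genotype a tumour had, whether tumours came from separate animals or cultures, or which promoter drove N-Myc, and no untransduced cells or normal ganglia were analysed here. Each tumour was measured once, on an array, so p-values reflect only the spread between these 8 samples.

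Sympathetic neurons arise from neural crest cells that meet bone morphogenetic proteins beside the dorsal aorta. These signals switch on a set of transcription factors that keep each other active and turn on the enzymes of noradrenaline synthesis. The homeodomain protein Phox2a belongs to that set. Hand2, a basic helix-loop-helix protein, and the zinc finger proteins Gata2 and Gata3 act on the noradrenergic genes, the LIM homeodomain protein Isl1 acts in early sympathetic neuroblasts, the zinc finger protein Insm1 acts in endocrine and neuronal precursors, and Tfap2b, an AP-2 family protein, is needed for noradrenergic differentiation. In human neuroblastoma the same factors are known as the adrenergic core circuit.

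Promoter sequences were matched for 6 of the 8 genes in RefSeq (GRCm38.p6), each running from 250 bases before to 50 bases after a transcription start. They are shown for the genes whose levels separated the tumours, Tfap2b, Gata2 and Gata3, and for Hand2 and Isl1, which stayed high in all of them. Capitals mark the letters TAAT on either strand (TAAT or ATTA), the core that homeodomain proteins such as Phox2a and Isl1 recognise.
Tfap2b, chr1:19211804-19212103, plus strand: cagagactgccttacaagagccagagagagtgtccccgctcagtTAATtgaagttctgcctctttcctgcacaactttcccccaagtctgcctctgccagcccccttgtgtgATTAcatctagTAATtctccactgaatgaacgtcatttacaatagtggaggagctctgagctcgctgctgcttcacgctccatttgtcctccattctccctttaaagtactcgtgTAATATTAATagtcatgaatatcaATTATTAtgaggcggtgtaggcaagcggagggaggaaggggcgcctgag
Gata2, first start, chr6:88193641-88193940, plus strand: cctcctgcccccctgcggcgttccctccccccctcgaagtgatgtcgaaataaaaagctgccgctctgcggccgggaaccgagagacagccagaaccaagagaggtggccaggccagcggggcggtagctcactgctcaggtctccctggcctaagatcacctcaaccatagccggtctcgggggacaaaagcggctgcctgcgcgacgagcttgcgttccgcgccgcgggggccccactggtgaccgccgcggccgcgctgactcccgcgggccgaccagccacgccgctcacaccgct
Gata2, second start, chr6:88198414-88198713, plus strand: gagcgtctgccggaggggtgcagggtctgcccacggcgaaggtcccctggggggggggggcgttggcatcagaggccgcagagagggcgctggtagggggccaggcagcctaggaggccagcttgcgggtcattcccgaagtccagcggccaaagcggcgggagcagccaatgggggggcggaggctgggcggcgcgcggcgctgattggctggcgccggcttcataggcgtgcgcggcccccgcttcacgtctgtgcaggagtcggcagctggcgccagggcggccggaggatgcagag
Gata3, chr2:9878551-9878850, minus strand: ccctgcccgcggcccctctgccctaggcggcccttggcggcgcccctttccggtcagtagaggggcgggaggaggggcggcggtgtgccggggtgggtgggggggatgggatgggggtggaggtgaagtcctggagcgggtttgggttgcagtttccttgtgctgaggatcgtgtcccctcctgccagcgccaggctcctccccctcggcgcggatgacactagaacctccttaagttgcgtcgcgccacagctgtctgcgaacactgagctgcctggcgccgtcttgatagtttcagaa
Hand2, chr8:57320733-57321032, plus strand: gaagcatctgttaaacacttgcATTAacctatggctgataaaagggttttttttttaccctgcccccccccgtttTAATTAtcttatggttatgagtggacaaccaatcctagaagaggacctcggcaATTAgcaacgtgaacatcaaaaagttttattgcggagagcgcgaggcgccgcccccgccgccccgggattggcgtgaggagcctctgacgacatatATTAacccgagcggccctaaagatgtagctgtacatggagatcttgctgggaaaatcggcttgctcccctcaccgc
Isl1, chr13:116309639-116309938, minus strand: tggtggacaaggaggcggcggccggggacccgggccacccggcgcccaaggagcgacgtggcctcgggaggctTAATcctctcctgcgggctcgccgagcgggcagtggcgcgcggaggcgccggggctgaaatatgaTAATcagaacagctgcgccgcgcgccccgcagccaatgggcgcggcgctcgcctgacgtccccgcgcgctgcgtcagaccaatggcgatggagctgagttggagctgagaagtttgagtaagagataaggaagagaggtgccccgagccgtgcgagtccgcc

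The Tfap2b promoter held 8 copies of the TAAT core, overlapping ones included, and 1.47% of the 32851 promoters in the table held as many. The Hand2 promoter held 5 copies (6.86% of promoters held as many) and that of Isl1 2 (34.1%), while both Gata2 promoters and that of Gata3 held 0. A core was present in 58% of all promoters. The letters GATA on either strand occurred in 57.9% of all promoters, with 2 copies for Hand2, 2 for Isl1, 1 for Gata3, 1 for Tfap2b and 0 in either Gata2 promoter. The E-box letters CANNTG, read by helix-loop-helix proteins such as Hand2 with their partners, occurred in 72.3%, with 2 copies for Hand2 (39.6% of promoters held as many), 1 each for Gata3, Isl1, Tfap2b and the second Gata2 start, and 0 for the first Gata2 start. The AP-2 letters GCCNNNGGC, whose reverse complement is the same, occurred in 16.6% of promoters, with 3 copies for Gata3, which 0.444% of promoters reached, 1 for the second Gata2 start, and 0 for the first Gata2 start, Hand2, Isl1 and Tfap2b. The promoters also differed in base composition, with a GC content of 48.3% for Tfap2b and 50.3% for Hand2, and of 67.3% to 73.7% for Gata2, Gata3 and Isl1, against a median of 52.7% over the table. These are letter matches within the windows shown, and no binding was measured.

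Values are log2 levels after RMA, which corrects, quantile normalises and summarises the probes of each array, and a level of 1 probe set is not set against that of another gene. The background of an array was set from 1435 probe sets for odorant, vomeronasal and bitter receptors, genes of sensory cells, at their 95th percentile, and lay between 5.45 and 5.66. Array medians lay between 5.63 and 5.75. Tumour 6 stood apart from the others for several of the genes below, so many results are given with and without it. A value given once includes tumour 6 unless stated, and may depend on it. The labelled tumour type was checked against neuronal markers, all 12 of which were above background, against 57.3% of all genes. Of the 12, 8 were lowest in tumour 6, against 16% of all genes above background. Their mean level was 10.33 in tumour 6 and 10.81 to 11.25 in the other 7. Fewer neuroblast cells in a tumour and less RNA per neuroblast cannot be told apart in bulk samples.

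The first comparison asks which of the factors were expressed. In the limma fit over all genes, 6 of the 7 measured factors were above background (Benjamini-Hochberg adjusted p under 0.05), against 57.3% of all 22180 genes. The exception was Hand1, the paralog of Hand2, best known from heart, placenta and also the sympathetic lineage. Isl1 lay 5.73 ± 0.14 above background (log2, standard error, n = 8, limma adjusted p = 1.05e-11) and Hand2 lay 4.98 ± 0.11 above it (limma adjusted p = 2.55e-13). Tfap2b was 4.84 ± 0.70 above background (limma adjusted p = 8.32e-05), Gata3 3.63 ± 0.30 (8.44e-07), Insm1 2.72 ± 0.10 (3.68e-11) and Gata2 2.63 ± 0.44 (0.000251). Isl1, Hand2, Gata3 and Insm1 exceeded the background on all 8 arrays, and Tfap2b and Gata2 on 7, the exception being tumour 6 for both.

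**Figure D1:**
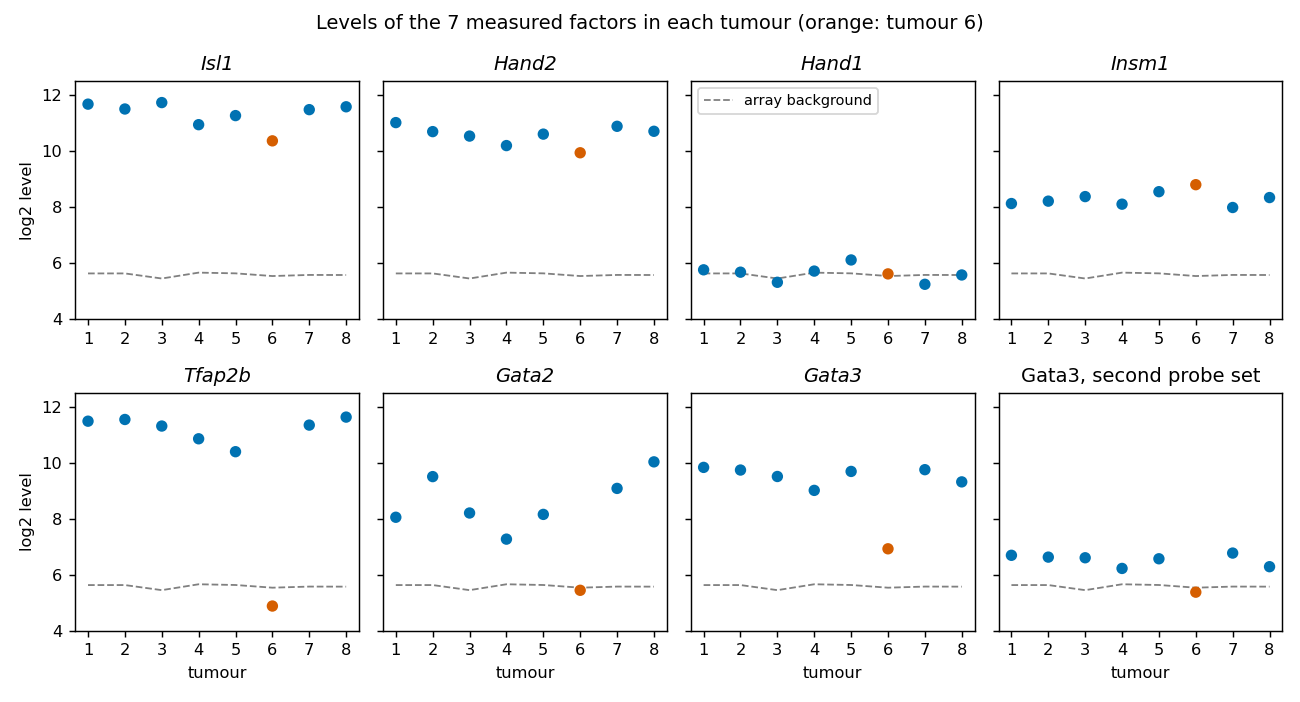
Log2 level (vertical axis) of the 7 measured factors in tumours 1 to 8, 1 point per array, with the array background as a dashed line and tumour 6 in orange; the last panel shows the second Gata3 probe set. Isl1, Hand2 and Insm1 stay well above the line in all tumours, Hand1 lies on it, and Tfap2b (4.88) and Gata2 (5.45) lie under it in tumour 6 alone.

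Hand1 ranged from 5.24 in tumour 7 to 6.11 in tumour 5, with a median of 5.65. Its mean was 0.04 ± 0.08 above background (limma adjusted p = 0.629), and 6 of 8 single values lay above the line. Any difference of Hand1 from the array background was within the spread between tumours.

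Hand2 and Isl1 stayed far above background in all tumours, though each varied more than the median gene (SD 0.23). Hand2 was at 9.94 in tumour 6, with a median of 10.65 and a highest level of 11.02 in tumour 1, an SD of 0.35 over the 8 tumours. The level of Isl1 was 10.36 in tumour 6, then 10.94 in tumour 4, around a median of 11.49 and a highest level of 11.73 in tumour 3 (SD 0.46). For both genes tumour 6 came last and tumour 4 next to last, and the other 6 tumours lay within 10.54 to 11.02 for Hand2 and 11.27 to 11.73 for Isl1. In tumour 6 Hand2 was still 4.40 and Isl1 4.83 above the background of the array.

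Tfap2b had an SD of 2.28 as measured, and of 2.05 with levels below the array background set to it. It was at 4.88 in tumour 6, which is 0.65 below the background of that array, and at 10.39 to 11.63 in the other 7 (mean 11.22 ± 0.44, SD, n = 7). With tumour 6 set to its background, Tfap2b was at least 51.4-fold lower there than the mean of the other 7. With the same floor, the gap between tumour 6 and the next tumour, number 5 at 10.39, was at least 4.85 on the log2 scale. Without tumour 6 the SD was 0.44.

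Gata2 was graded over the tumours as well as low in 1 of them. It was at 5.45 in tumour 6 and 7.27 in tumour 4, then at 8.05, 8.15 and 8.20 in tumours 1, 5 and 3, and at 9.08, 9.50 and 10.03 in tumours 7, 2 and 8. The level in tumour 6 was 0.09 below its array background, so that Gata2 was at least 8.43-fold lower there than the mean of the other 7 (8.61 ± 0.96, SD, n = 7). The SD was 1.43 with tumour 6 and 0.96 without it. The middle tumours 1, 3 and 5 cannot be put in order, since no tumour was measured more than once.

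Gata3 was also lowest in tumour 6. It was at 6.93 in tumour 6 and at 9.01 to 9.83 in the other 7 (mean 9.55 ± 0.29, SD, n = 7), a difference of 2.62 on the log2 scale or 6.16-fold. On this probe set it stayed above background in tumour 6, by 1.39. A second probe set of Gata3, which does not enter the other results, was at 5.38 in tumour 6, below the array background of 5.54, and at 6.23 to 6.77 in the other 7. The 2 probe sets followed each other over the tumours (Pearson r = 0.98, exact permutation p = 0.000446; Spearman rho = 0.952, exact p = 0.00114), and without tumour 6 r was 0.926 (exact p = 0.00357). Without tumours 4 and 6, the 2 farthest from the median, it was 0.874 (exact p = 0.025).

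Insm1 went the other way. It was at 8.80 in tumour 6, its highest level, and at 7.99 to 8.55 in the other 7 (mean 8.24 ± 0.19, SD, n = 7), a difference of 0.56. Its SD of 0.27 placed it 4847th of the 12699 genes above background. Its family member Insm2 was at 7.19 in tumour 6 and at 9.55 to 10.12 in the other 7, so the paralogs ran in opposite directions there.

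By rank of measured SD among the 12699 genes above background, Tfap2b was 1st, Gata2 29th, Gata3 180th, Isl1 1436th, Hand2 2628th and Insm1 4847th. The ranks of Tfap2b and Gata2 rest on tumour 6 levels below background, and with such levels of all genes set to their array background Tfap2b was 2nd and Gata2 33rd. The median SD of the 6 factors was 0.71, against 0.23 over all genes above background. The ranks, this median and the unadjusted variance calls below all include tumour 6. Without tumour 6 the SD was 0.96 for Gata2, 0.44 for Tfap2b, 0.29 for Gata3, 0.27 for Isl1, 0.26 for Hand2 and 0.19 for Insm1. An F test set the residual variance of each gene against the prior variance that limma's trend over all genes gives. By it 0 of the 6 factors passed after adjustment (adjusted p between 0.587 and 0.994), as did 0% of all genes above background. At an unadjusted p under 0.05, 4 of the 6 passed, Gata2 (0.00205), Gata3 (0.00715), Isl1 (0.0367) and Tfap2b (0.000119), against 6.5% of all genes above background.

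**Figure D2:**
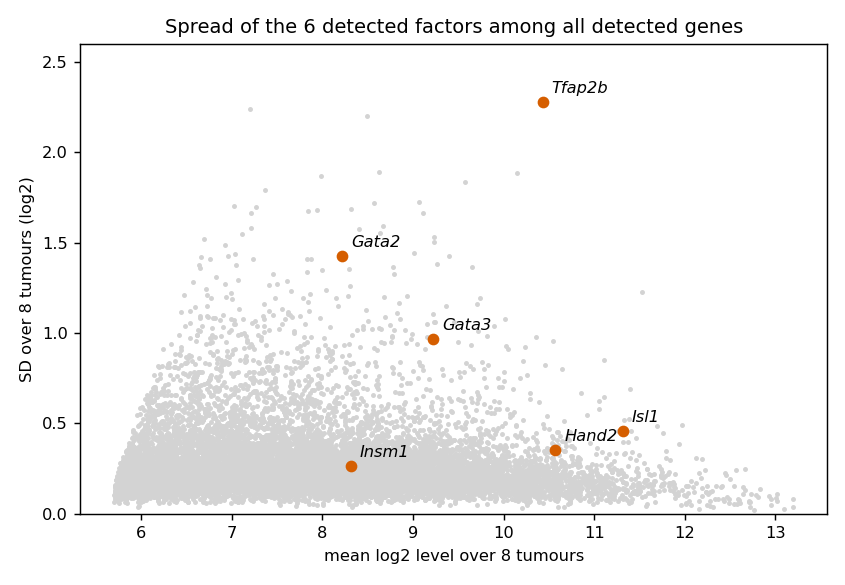
SD over the 8 tumours (vertical axis, log2) against mean log2 level (horizontal axis) for all 12699 genes above background (grey), with the 6 factors in orange. Tfap2b has the highest measured SD of all points (2.28, or 2.05 with its tumour 6 level set to background), Gata2 (1.43) and Gata3 (0.97) lie near the upper edge, and Hand2 and Insm1 lie among the bulk. Without tumour 6 the SD is 0.44 for Tfap2b, 0.96 for Gata2 and 0.29 for Gata3.

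The second comparison asks whether the factors were low in the same tumours. Of the 6 factors above background, 5 were lowest in tumour 6 (Hand2, Gata2, Gata3, Isl1 and Tfap2b), against 16% of all genes above background. Tumours 4 and 6 were the 2 lowest for 4 of the 6 (Hand2, Gata2, Gata3 and Isl1), against 8.08% of all genes. Gata2 and Tfap2b were below the array background in tumour 6 and above it in the other 7, a pattern that 0.488% of genes shared. By Dixon's criterion, which compares the gap beside the most extreme sample with the whole range, tumour 6 lay apart as the lowest for 2 of the 6, Gata3 and Tfap2b, against 1.12% of genes, and the share with any 1 tumour apart was 6.95%. Insm1 was the 1 factor highest in tumour 6, against 18.3% of genes. These counts were chosen after the values were seen.

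By list mean, glia and crest markers were higher in tumours 4 and 6 than in the other 6, and muscle markers were highest in tumour 6. Fibroblast and macrophage markers varied too, with tumour 6 inside the range of the other 7. The part of any of these markers in the results was not tested. Bulk arrays do not show which cells expressed them, tumour cells included. The counts below stand against 57.3% of all genes above background. Of 6 measured glia and crest markers 4 were above background, and the mean over the list reached 8.57 in tumour 4 and 7.85 in tumour 6, while the other 6 ran from 5.45 to 6.23. Sox10, which marks crest and glia, was at 8.32 in tumour 4 and 8.05 in tumour 6. Skeletal muscle markers, 4 of 7 above background, had their highest mean in tumour 6 (8.23, against 5.79 to 7.33 in the other 7). Fibroblast markers, 6 of 7 above background, had a mean of 8.01 in tumour 6, inside the range of the other 7 (7.17 to 8.53), the lowest being tumour 4. Macrophage markers, 6 of 7 above background, were at a mean of 7.90 in tumour 6, and ran from 6.93 to 8.29 in the other 7.

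Gata2 and Gata3 are also known from cells outside the sympathetic lineage, Gata2 from endothelium and mast cells and Gata3 from T cells. Of mast cell markers 0 of 7 were above background (list means of 3.74 to 4.06), and the mast cell proteases Cpa3 and Mcpt4 were at 3.78 and 3.01 on average. Of T cell and innate lymphoid markers 1 of 7, Cd4, was above background, while Cd3e was at 5.01 ± 0.26. Endothelial markers were above background for 7 of 8 and had their highest mean in tumour 4 (7.81), where Gata2 was next to lowest, and their lowest in tumour 1 (6.51). Whether any of these cells contributed to the levels of Gata2 or Gata3 was not tested.

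**Figure D3:**
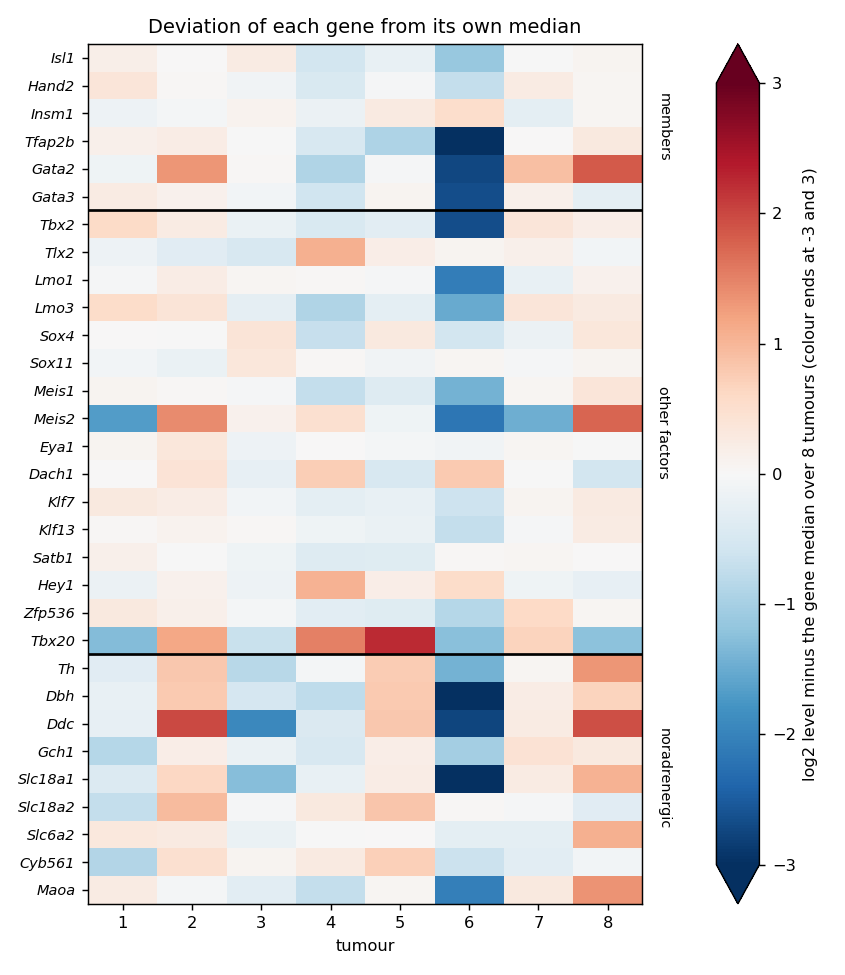
Log2 level minus the median of the same gene over the 8 tumours (colour, red above and blue below, ending at -3 and 3) for the 6 factors above background, 16 other sympathetic factors and 9 noradrenergic genes (rows) in tumours 1 to 8 (columns). The column of tumour 6 is blue for most rows, with Insm1, Dach1 and Hey1 red, and Gata2 is red in tumours 2, 7 and 8.

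The third comparison asks whether the factors varied together from tumour to tumour. Pearson's r was computed for the 15 pairs of the 6 factors and for each factor with every gene above background, 76173 relations in all, with exact permutation p-values over the 40320 pairings (two-sided). Of the 15 pairs, 11 had an unadjusted p under 0.05, 10 of them positive and 1 negative. Over all 76173 relations the shares were 13.5% in either direction, 6.43% positive and 7.08% negative. After Benjamini-Hochberg adjustment over all 76173 relations none of the pairs passed (lowest adjusted p = 0.201), nor did any of the relations with other genes (lowest adjusted p = 0.145).

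The 10 pairs among Hand2, Gata2, Gata3, Isl1 and Tfap2b were all positive, with r between 0.766 and 0.953 and unadjusted exact p-values of 0.00188 to 0.0381. Much of this rested on tumour 6. Without it only 1 of the 15 pairs had an exact p under 0.05, against 9.23% of all relations, and r over the same 10 pairs ran from 0.181 to 0.836. Spearman's rho, which weighs tumour 6 by rank alone, ran from 0.357 to 0.857 for these pairs, and 3 of them had an exact p under 0.05.

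Gata3 and Tfap2b had the highest r of all pairs (0.953, exact permutation p = 0.0381, adjusted p = 0.343), but rho was 0.476 (exact p = 0.243), and without tumour 6 r was 0.181 (exact p = 0.699). Left out with tumour 4 as well, the 2 tumours farthest from the median of Gata3, r was -0.203 (exact p = 0.731). The relation of Gata3 with Tfap2b therefore rests on tumour 6. That of Gata3 with Isl1 rests on tumours 4 and 6 (r = 0.895, exact p = 0.0148; rho = 0.524, exact p = 0.197), since r was 0.593 without tumour 6 (exact p = 0.162) and -0.229 without both (exact p = 0.637).

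Hand2 and Gata3 was the pair that kept an exact p under 0.05 without tumour 6. Its r was 0.858 (exact permutation p = 0.00188, adjusted p = 0.201), rho was 0.857 (exact p = 0.0107), and r without tumour 6 was 0.836 (exact p = 0.0175). Without tumours 4 and 6, the 2 farthest from the median of Hand2, r was 0.559 over 6 tumours (exact p = 0.236), so this relation too rests in part on them. Isl1 and Tfap2b had an r of 0.891 (exact p = 0.0100; rho = 0.667, exact p = 0.0831), which was 0.686 without tumour 6 (exact p = 0.0889) and 0.738 without tumours 4 and 6 (exact p = 0.122). Gata2 and Tfap2b had an r of 0.842 (exact p = 0.00727) and a rho of 0.81 (exact p = 0.0218), with r at 0.631 without tumour 6 (exact p = 0.13) and at 0.53 without tumours 6 and 8 (exact p = 0.263). Hand2 and Isl1 had an r of 0.875 (exact p = 0.00685; rho = 0.571, exact p = 0.151), 0.713 without tumour 6 (exact p = 0.0806) and 0.181 without tumours 4 and 6 (exact p = 0.728), on which it rests. In no pair did the exact p stay under 0.05 once the 2 tumours most distant from the first gene's median were left out.

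The r of Insm1 with each of the other 5 was negative, between -0.784 (Tfap2b, exact permutation p = 0.0219) and -0.565 (Gata2, exact p = 0.143). For Tfap2b rho was -0.452 (exact p = 0.267), and r without tumours 6 and 7 was -0.458 (exact p = 0.389). Without tumour 6 the 5 values of r ran from -0.438 to 0.0917, and none had an exact p under 0.05. With the 2 tumours farthest from the first factor's median left out, all 5 stayed negative. They ran from -0.781 (Hand2, without tumours 4 and 6, exact p = 0.0625) to -0.142 (Gata2, without tumours 6 and 8, exact p = 0.7875).

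**Figure D4:**
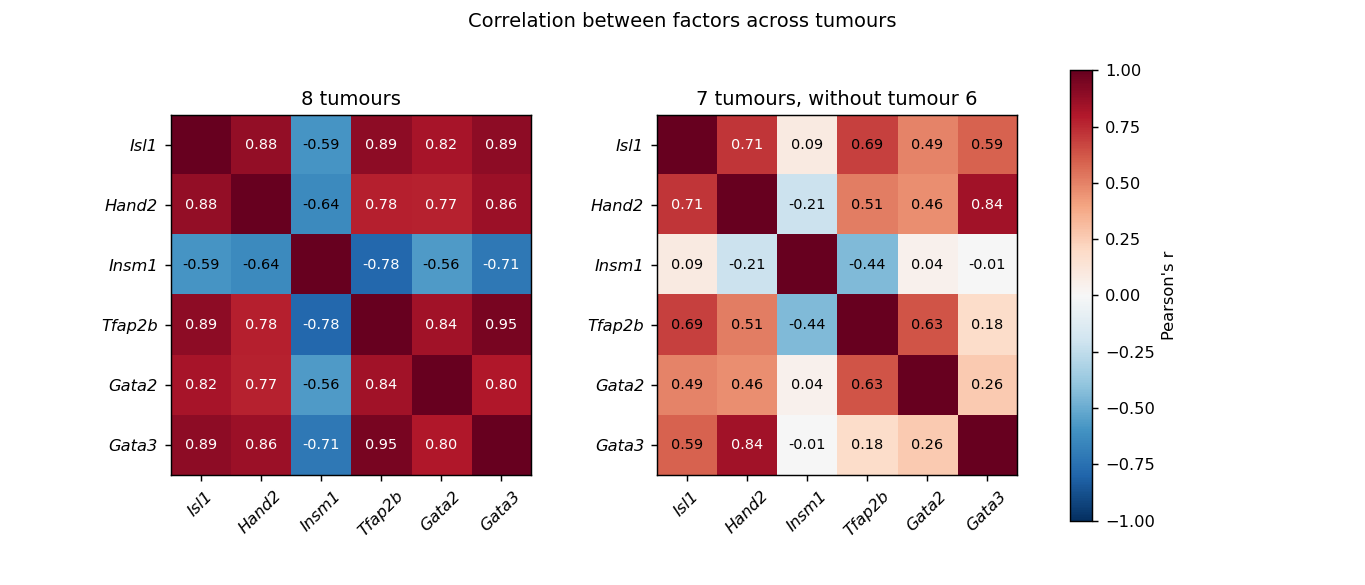
Pearson's r (colour and printed value) between the levels of the 6 factors above background over all 8 tumours (left) and over 7 tumours without tumour 6 (right). The 10 pairs without Insm1 run from 0.766 to 0.953 on the left and from 0.181 to 0.836 on the right, where Hand2 with Gata3 is the highest.

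The fourth comparison sets the factors against the noradrenergic genes that the circuit is known to control. Of 10 such genes 9 were above background, against 57.3% of all genes, the exception being Pnmt, which makes adrenaline from noradrenaline. Of the 9, 7 were lowest in tumour 6, against 16% of all genes above background, Slc6a2 there and in tumour 7 alike. Of 54 relations between the 6 factors and the 9 genes, 15 had an unadjusted exact p under 0.05, all positive, against 6.43% positive over all 76173 relations, and none passed after adjustment (lowest adjusted p = 0.201). Without tumour 6 there was 1, against 4.59% positive over all.

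Gata2 gave 6 of these 15, Tfap2b 3, Hand2, Gata3 and Isl1 2 each and Insm1 0, and the differences between factors were not tested. Over all genes above background, 18.2% were related to Gata2 at this threshold in either direction, 13.4% to Tfap2b, 16.5% to Hand2, 12.7% to Gata3, 12.9% to Isl1 and 7.39% to Insm1. The 6 were Th, the first enzyme of catecholamine synthesis, Ddc, which makes dopamine, Dbh, which makes noradrenaline, Gch1, which makes the cofactor of Th, the vesicular transporter Slc18a1 and the degrading enzyme Maoa. Their r with Gata2 lay between 0.821 (Th, exact permutation p = 0.0116; rho = 0.786, exact p = 0.0279) and 0.922 (Maoa, exact p = 0.00176; rho = 0.714, exact p = 0.0576). Without tumour 6 the 6 values of r stayed between 0.664 and 0.797, and among them Maoa alone had an exact p under 0.05 (0.0254), 1 of 9 noradrenergic genes against 9.17% of all genes. Without tumours 6 and 8 the 6 values lay between 0.429 and 0.711, and none had an exact p under 0.05.

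The levels followed the grading of Gata2 only in part. The level of Ddc was 5.61 in tumour 6, next to 6.43 in tumour 3, around a median of 8.36 over the 8 tumours, and it was at 10.34 and 10.29 in tumours 2 and 8, where Gata2 was also highest. Slc18a1 was at 5.14 in tumour 6, at 7.09 in tumour 3 and at 9.42 in tumour 8. Th was at 8.59 in tumour 6 and 11.34 in tumour 8, so that it stayed far above background in all tumours. Gata2 was lower in tumour 4 (7.27) than in tumour 3 (8.20). Ddc (7.93), Slc18a1 (8.14) and Th (9.96) were higher in tumour 4 than in tumour 3, where Th was at 9.17. Gch1 (6.02), Dbh (9.87) and Maoa (8.41) were lower in tumour 4 than in tumour 3 (6.32, 10.14 and 8.81). The 3 other noradrenergic genes above background, the vesicular transporter Slc18a2, the noradrenaline transporter Slc6a2 and the vesicle cytochrome Cyb561, had an r with Gata2 of 0.0531, 0.62 and 0.33 (exact p = 0.906, 0.114 and 0.434; rho = -0.0952, 0.443 and 0.262, exact p = 0.84, 0.273 and 0.536). Slc18a2 was at 9.49 in tumour 6, close to its median of 9.46.

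**Figure D5:**
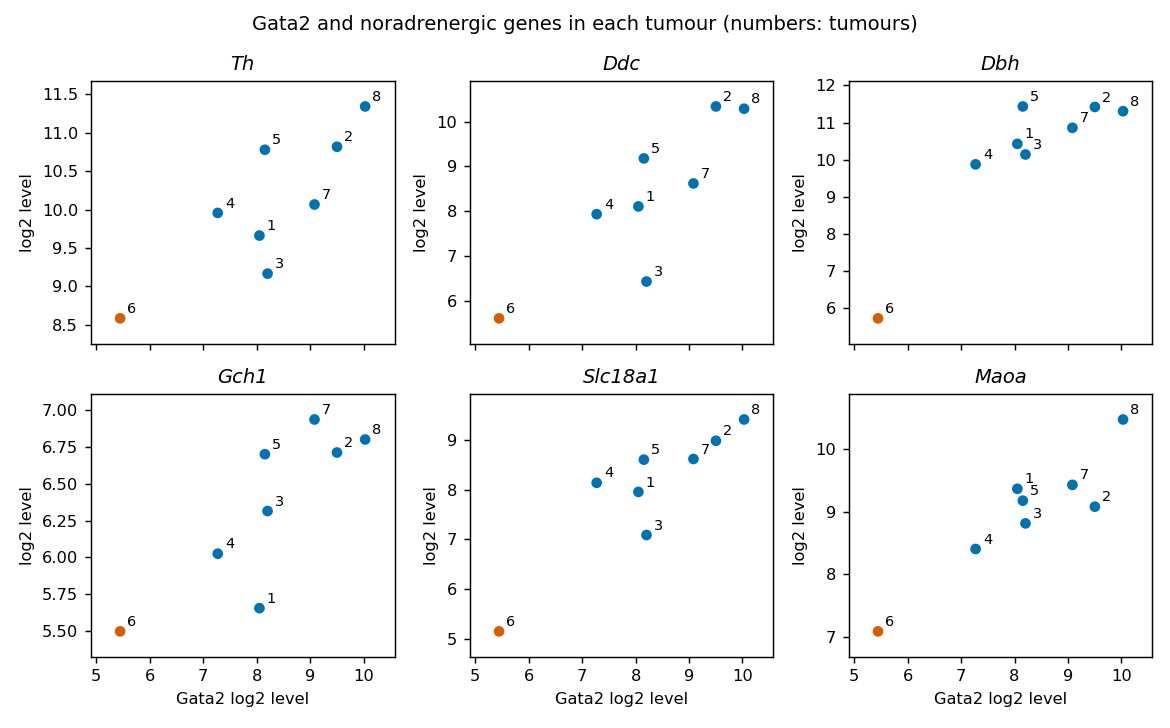
Log2 level of 6 noradrenergic genes (vertical axes) against that of Gata2 (horizontal axis), 1 numbered point per tumour, with tumour 6 in orange. Tumour 6 is the lowest point in all panels and tumours 2, 7 and 8 lie to the right; r runs from 0.821 to 0.922 with tumour 6 and from 0.664 to 0.797 without it.

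Dbh followed Gata3 (r = 0.951, exact permutation p = 0.0191; rho = 0.524, exact p = 0.197) and Hand2 (r = 0.774, exact p = 0.0252; rho = 0.524, exact p = 0.197) through tumour 6, where it was at 5.72, against 9.87 to 11.43 in the other 7. Without tumour 6 r was 0.456 with Gata3 (exact p = 0.309) and 0.397 with Hand2 (exact p = 0.394). Without tumours 4 and 6 it was -0.0941 (exact p = 0.843) and -0.183 (exact p = 0.721), so both relations rest on these tumours. The r of Dbh with Tfap2b was 0.936 (exact p = 0.0557) and rho was 0.452 (exact p = 0.267). That r was 0.0422 without tumour 6 (exact p = 0.926). Without tumours 5 and 6, the 2 farthest from the median of Tfap2b, it was 0.814 (exact p = 0.0222).

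The other genes of the circuit were taken from lists of further sympathetic factors, of paralogs and of partner proteins. Of 18 measured further factors 16 were above background, all but Hmx1 (5.19 ± 0.26) and Rarb (5.41 ± 0.19), against 57.3% of all genes. For 8 of the 16 tumour 6 had the lowest value, against 16% of all genes above background. Tbx2, a T-box repressor, was at 6.24 there and 8.46 to 9.48 in the other 7, and Lmo1, a LIM-only adaptor and neuroblastoma oncogene in human, was at 7.22 and at 9.07 to 9.51 in the other 7.

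Most paralogs of the factors were not above background. Of 10 measured, 3 were above background, Insm2, Gata4 (6.38 ± 0.15) and Tfap2e (6.14 ± 0.16), against 57.3% of all genes. Gata1 (4.47 ± 0.12), Gata5 (5.17 ± 0.15), Gata6 (5.04 ± 0.25), Isl2 (4.94 ± 0.14) and Tfap2c (3.99 ± 0.07) lay below it (mean ± SD, n = 8). In tumour 6, where Gata2 and Tfap2b were below background, Gata6 was at 5.59, Gata4 at 6.34, Tfap2a at 5.53 and Tfap2e at 6.20, against an array background of 5.54. Of these only Gata6 was outside the range of the other 7 tumours (4.79 to 5.14). That range was 6.21 to 6.59 for Gata4, 4.13 to 6.92 for Tfap2a and 5.93 to 6.48 for Tfap2e.

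Transcripts of partner proteins were above background for all 16 measured genes, against 57.3% of all genes. Among them were those of the E proteins Tcf3, Tcf4 and Tcf12 that pair with Hand2. Ldb1, which binds Isl1 and LIM-only proteins, was another, as were Zfpm1 and Zfpm2, which bind Gata factors. The median SD of the 16 was 0.20, close to the 0.23 of all genes above background. Tcf3 varied least of the E proteins (9.62 ± 0.07), and the most variable were Ldb2 (8.36 ± 0.73), Zfpm2 (7.83 ± 0.63), Lmo4 (8.41 ± 0.38) and Zfpm1 (7.19 ± 0.35). Zfpm1 and Zfpm2 were the only 2 of the 16 with their lowest level in tumour 6, at 6.71 and 6.78. Among all genes above background the share lowest in tumour 6 was 16%, so the count does not set the partners apart. Zfpm1 was nearly as low in tumour 5 (6.79).

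Finally, the genes whose pattern over the 8 tumours was most like that of each factor were named by Pearson's r, as a description with no test, other factors left out. Pearson's r does not show how far a gene moved. Among the genes named below, Bclaf1, Mtfmt and Bex1 had SDs of 0.08, 0.13 and 0.18, under the median of 0.23 over genes above background. For Hand2 they were Arhgap33 (0.973), the LIM-only gene Lmo3 (0.972) and Hdnr (0.966), and each r was at least 0.94 without tumour 6. Cotl1, an actin-binding protein, was the most opposite to Hand2 (-0.991, and -0.982 without tumour 6). For Gata2 they were Bclaf1 (0.986), the kinase gene Rps6ka5 (0.974) and Tcaf1 (0.972), with 0.932 or more without tumour 6. The most opposite was Rrp9, which acts in ribosomal RNA processing (-0.98, and -0.946 without tumour 6).

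The genes most like Gata3 were Ankrd50 (0.987), Bex1 (0.98) and A530058N18Rik (0.98), and without tumour 6 their r was 0.822, 0.727 and 0.826. For Isl1 they were Srgap1, a partner of the guidance receptor Robo (0.976), Chn1 (0.967) and the polysialic acid synthase gene St8sia4 (0.967). Without tumour 6 these were 0.919, 0.902 and 0.896. For Insm1 they were Mtfmt (0.974), Klhl29 (0.957) and Shisa8 (0.946), and 0.965, 0.919 and 0.876 without tumour 6. The genes most like Tfap2b were Gab2 (0.984), Lmo1 (0.978) and Tmem35a (0.974), but without tumour 6 these were 0.71, 0.305 and 0.693. The most opposite genes were Limch1 for Gata3 (-0.982), Fgfrl1 for Isl1 (-0.978), Cacnb1 for Insm1 (-0.971) and Tmem158 for Tfap2b (-0.984). Without tumour 6 their r was -0.919, -0.933, -0.970 and -0.693.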

How the data were processed

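Total RNA of the 8 tumours was labelled with biotin and measured on Affymetrix arrays, 1 per tumour. The deposited values are log2 levels per probe set, which the authors made with the tools that the submitters' processing notes list, RMA and Partek 6.5, in roles not given there. Values between 2.07 and 13.61 fit a log2 scale. The table held 41345 probe sets, of which 23521 have a single gene symbol in the platform annotation, 1814 have more than 1, and 16010 have no name here.

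For each gene the probe set of highest mean was kept. Levels minus the background of the same array were fitted with limma 3.58.1 in R 4.3.3 (trend and robust prior), with Benjamini-Hochberg adjustment over 22180 genes, and 12699 were above background. Variance was tested against the prior variance of limma's trend by an upper tail F test that is not part of limma. It used 7 residual degrees of freedom and the largest prior degrees of freedom of the fit. Correlations have exact permutation p-values over all pairings. Other steps used scipy 1.17.1, numpy 2.4.6 and pandas 2.3.3 under Python 3.11.15. The fit against background, the permutation test of Pearson's r and the variance test were tried on simulated data. Dixon's criterion and Spearman's rho were not among them. The number of arrays limits the precision. The factors, lists and rules for named genes were chosen with earlier results of these data known. Named are the factors, the noradrenergic genes, the 4 most variable and all undetected genes of the lists of further factors, paralogs and partners, and for each factor the 3 most alike genes and the most opposite one. Other names were chosen after values were seen. Alternatives were the mean of all probe sets, arrays quantile normalized again or centred, the 99th percentile or median as background, limma without trend, Spearman's rho, no filter on dim probe sets, and tumours left out.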

Additional observations from a re-analysis of the deposited data

Results flagged for a closer look

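Of the 60 genes named by rule, 17 had 1 tumour far from the other 7 by Dixon's criterion (the gap beside that tumour over the whole range). Chance gives this for about 1 gene in 20, and 6.95% of all genes above background had it, but the 17 cannot be read against these shares. Of the 17, 8 (Lmo1 among them) were named for their likeness or opposition to Gata3 or Tfap2b, others as the most variable of their lists, and Hmx1, Gata6 and Tfap2d were not above background. For 11 of the 17 the outlying tumour was number 6, as the lowest. Among the factors these were Tfap2b (4.88, against 10.39 to 11.63 in the other 7) and Gata3 (6.93, against 9.01 to 9.83). Among genes of the circuit they were Dbh (5.72), Tbx2 (6.24), Lmo1 (7.22) and Insm2 (7.19). Among the genes most like a factor they were Ankrd50 (8.02), Bex1 (10.40), A530058N18Rik (4.60), Gab2 (8.90) and Tmem35a (7.60).

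Tumour 6 was the highest, apart from the others, for Gata6 (5.59, against 4.79 to 5.14 in the other 7), Limch1 (8.20, against 5.66 to 6.75) and Tmem158 (8.65, against 6.78 to 7.19). Tumour 8 was the highest for Slc6a2 (7.04, against 5.67 to 6.28), and tumour 4 for Tfap2d (6.22, against 3.57 to 4.18). Tumour 3 was the lowest for Hmx1 (4.62, against 5.07 to 5.42), which was below background in all tumours.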

How the results depend on the processing

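The count of 6 factors above background was the same under every alternative except the median as background, where Hand1 passed too and all 7 did. The value of Hand1 minus background was -0.966 at the 99th percentile and between -0.0232 and 0.0929 with 1 tumour left out. The count of 0 factors past the variance test stayed 0 in all alternatives. The 11 related pairs became 3 with Spearman's rho, 1 to 11 with 1 tumour left out (1 without tumour 6), 0 without tumours 4 and 6 and 0 when the 2 tumours most distant from the first factor's median were dropped, an alternative added after seeing the data. The 15 relations with noradrenergic genes became 5 with Spearman's rho, 1 to 21 with 1 tumour left out (1 without tumour 6, 8 without tumour 4) and 1 without tumours 4 and 6. That last 1 was Hand2 with Cyb561, a negative relation that was not among the 15. Its r was -0.826 without tumours 4 and 6 (exact permutation p = 0.0458) and -0.0909 over all 8 tumours (exact p = 0.831). None of the 15 therefore remained without tumours 4 and 6. The 2 factors with 1 tumour apart became 0 to 4 with 1 tumour left out (0 without tumour 6, 4 without tumour 4). Another probe set rule, normalization or centring moved none of these counts by over 1.5 times. With levels below the array background set to it, also added after seeing the data, the 11 pairs, 15 relations and 2 factors with 1 tumour apart kept their counts.

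The sign of r changed for Gata2 with Insm1 (-0.71 to 0.0421 with 1 tumour left out) and Isl1 with Insm1 (-0.773 to 0.0917). Without tumours 4 and 6 it changed for Hand2 with Gata2 (-0.0408), r of Gata2 with Gata3 (-0.499), r of Gata2 with Isl1 (-0.0467), Gata3 with Isl1 (-0.229), Gata3 with Tfap2b (-0.203), Hand2 with Dbh (-0.183), Gata3 with Dbh (-0.0941), Gata3 with Maoa (-0.574), Isl1 with Dbh (-0.782) and Isl1 with Maoa (-0.00292). The removal of tumours 4 and 6 leaves 6 samples, and the cause of the other changes was not tested. No paired analysis was possible because all tumours form 1 group. Arrays carry no counts, and levels near the background are compressed by RMA, which limits what can be said of Tfap2b and Gata2 in tumour 6 and of Hand1.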

Other observations

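A few further genes of the lists varied widely over the tumours. Meis2, a homeodomain cofactor, was at 10.96 and 10.63 in tumours 8 and 2, and at 7.05, 7.53 and 7.76 in tumours 6, 1 and 7 (SD 1.45). Tbx20, a T-box factor best known from heart and motor neurons, was at 9.06, 8.33, 7.98 and 7.48 in tumours 5, 4, 2 and 7, and at 5.51 to 6.14 in the other 4, close to background (SD 1.43). Tfap2a, the paralog of Tfap2b that acts in early neural crest, was at 6.92, 6.63 and 6.13 in tumours 4, 2 and 3 and at 4.13 to 5.53 in the other 5. It was not above background on average (5.41 ± 1.06, SD, n = 8, limma adjusted p = 0.612). Tfap2d was at 6.22 in tumour 4 and at 3.57 to 4.18 in the other 7.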
